A study of Mus musculus with 3 samples.

Results

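miR-126a is a microRNA of endothelial cells, the cells that line blood vessels, and both of its arms were followed here across ovaries of newborn mice cultured with DEHP. The members were 2 of the 627 mature miRNAs in the deposited table, taken by name: mmu-miR-126a-5p and mmu-miR-126a-3p, each with 1 row. DEHP, or Di (2-ethylhexyl) phthalate, is a plasticizer that leaches from plastics. CD1 mouse ovaries were cultured without DEHP (0 μM, with the solvent DMSO alone), with 10 μM or with 100 μM, up to postnatal day 3, and miRNAs were sequenced from pooled ovaries, in a single library at each concentration. Without replicates no difference below carries a p-value, and the 95% intervals hold counting error only, not the variation from culture to culture. The arms of miR-126a are themselves the endothelial markers used here, so the label of the cell type had no independent check.

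A miRNA gene is transcribed as part of a longer RNA, cut to a hairpin in the nucleus and cut again by Dicer in the cytoplasm, which leaves a duplex of the 5p and the 3p arm. One arm of the duplex is usually kept in an Argonaute protein and the other is mostly lost, and the kept arm pairs with target mRNAs through its seed, bases 2 to 8. miR-126a is known for its place inside Egfl7, a gene for a protein secreted by endothelium, and for its work in vessels, where the 3p arm lowers Spred1 and Pik3r2, inhibitors of signalling from the VEGF receptor, and the 5p arm lowers Dlk1, an inhibitor of Notch. Hematopoietic progenitors and platelets also hold miR-126. In the ovary, endothelium is one cell type beside germ cells, pregranulosa cells and stroma.

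In the RefSeq annotation of GRCm38 (the submitters' processing notes name mm10, the same assembly), the Mir126a hairpin of 73 bases lies at chr2:26591357-26591429 on the plus strand. GENCODE M21 places Egfl7 at chr2:26580014-26593120 on the same strand. Of the 9 Egfl7 transcripts that span the hairpin, 8 have it in an intron, and 6 share the intron chr2:26591064-26591663, the same in each of them. RefSeq also lists Mir126b on the minus strand of the same place, and the deposited table has 0 rows named miR-126b. The mature 3p arm is at chr2:26591402-26591423. Its sequence is shown 5′ to 3′ with the seed in capitals because the seed sets the arm apart from other miRNAs: among 1679 mature names in the RefSeq table, 1 has this seed, the arm itself.
mmu-miR-126a-3p: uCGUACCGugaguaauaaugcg

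Both arms were abundant without DEHP, slightly higher at 10 μM and much lower at 100 μM. The table held 5253367, 5064602 and 5952274 counts at 0, 10 and 100 μM, with 1 row kept per miRNA. miR-126a-3p had 54626 counts at 0 μM, 59970 at 10 μM and 4970 at 100 μM. miR-126a-5p had 9002, 10463 and 409 counts. For both arms the library at 100 μM was the low one, and no count was near the floor of 3 counts. Since the 10 most abundant miRNAs held 45.4%, 45.6% and 70.5% of the counts, the libraries were scaled by median-of-ratios size factors (1.38, 1.35 and 0.546), and a normalized count is a count divided by the factor.

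In normalized counts miR-126a-3p reached 39638 at 0 μM (exact Poisson interval 39306 to 39972) and 44490 with 10 μM (44135 to 44847), but 9105 with 100 μM (8854 to 9362). That of miR-126a-5p was 6532 (6398 to 6668), 7762 (7614 to 7912) and 749 (678 to 826). Within each arm the 3 intervals did not overlap, but at such counts they are narrow and hold counting error only. How many of the other miRNAs had intervals that did not overlap was not counted. At 100 μM the 5p arm was left at 11.5% of its level at 0 μM. In bulk ovaries, fewer endothelial cells and less miR-126a per cell cannot be told apart, and with 1 library per concentration the dose and the preparation of the library cannot be told apart either.

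**Figure D1:**
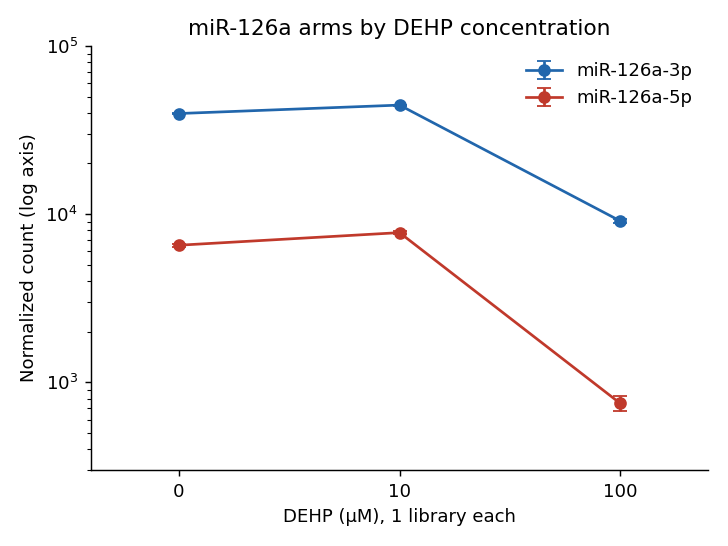
Normalized count of each miR-126a arm (log axis) against DEHP concentration, 1 library per point, with exact Poisson intervals at 95% as bars. The 3p arm lies above the 5p arm in every library, and both points at 100 μM, 9105 and 749, lie below those at 0 and 10 μM.

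A read covers the whole mature miRNA, so counts of different miRNAs were ranked without division by length. miR-126a-3p held rank 23 of 627 at 0 μM, rank 24 at 10 μM and rank 75 at 100 μM. The 5p arm held ranks 70, 64 and 202. As a share of all counts, the 3p arm made up 1.04% at 0 μM and 1.18% at 10 μM, against 0.0835% at 100 μM (Wilson interval 0.0812% to 0.0859%). The shares of the 5p arm were 0.171%, 0.207% and 0.00687%. These shares use no size factor, and on them the difference at 100 μM was larger than on normalized counts.

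At 0 μM the 3p arm stood between miR-340-5p (normalized count 41264) and miR-10a-5p (39127). The counting interval of miR-10a-5p, 38797 to 39459, overlapped that of the arm, and the interval of miR-340-5p did not. The 5p arm stood between miR-17-5p (6610) and miR-16-5p (6359), and both their intervals overlapped its own. These neighbours in level had other log2 ratios of normalized counts between 100 and 0 μM: -1.58 for miR-340-5p, 2.48 for miR-10a-5p, -1.33 for miR-17-5p and -0.36 for miR-16-5p.

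After adding 0.5 to each normalized count, log2 ratios were computed for 587 miRNAs whose mean over the libraries reached 10, and a threshold of 2 was used for size. Between 10 and 0 μM, the log2 ratio was 0.17 for the 3p arm (exact Clopper-Pearson counting interval 0.15 to 0.18) and 0.25 for the 5p arm (0.21 to 0.29). These are 1.12-fold and 1.19-fold higher levels. Neither of the 2 arms passed 2, nor did most miRNAs, since 0.681% of the 587 were below -2 and 0% above 2. The quartiles of all log2 ratios at 10 μM were -0.37 and 0.29, so both arms lay inside the middle range.

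Between 100 and 0 μM, the 3p arm had a log2 ratio of -2.12 (-2.16 to -2.08), a 4.35-fold lower level (4.23 to 4.48). For the 5p arm the log2 ratio was -3.12 (-3.27 to -2.98), an 8.71-fold lower level (7.89 to 9.65). Both arms were thus below -2, as were 9.37% of all 587 miRNAs, and 10.4% were above 2. With total counts as the scale, 213 of 593 miRNAs were below -2 and 4 above 2 instead of 55 and 61. Of the 587 miRNAs, 18 had a lower ratio than the 5p arm and 50 a lower ratio than the 3p arm. The median ratio of all miRNAs was -0.01 and the quartiles were -1.06 and 1.12.

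The step from 10 to 100 μM uses the same library at 100 μM and gave log2 ratios of -2.29 (-2.33 to -2.25) for the 3p arm and -3.37 (-3.52 to -3.23) for the 5p arm. Both were below -2 here too, beside 8.69% of all miRNAs. The 5p arm was 10.4-fold and the 3p arm 4.89-fold lower than at 10 μM. Neither arm was lower at 10 than at 0 μM, so the lower level lay between 10 and 100 μM. The counts of both arms together were 63628, 70433 and 5379, and their log2 ratio between 100 and 0 μM was -2.23 (-2.27 to -2.19).

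**Figure D2:**
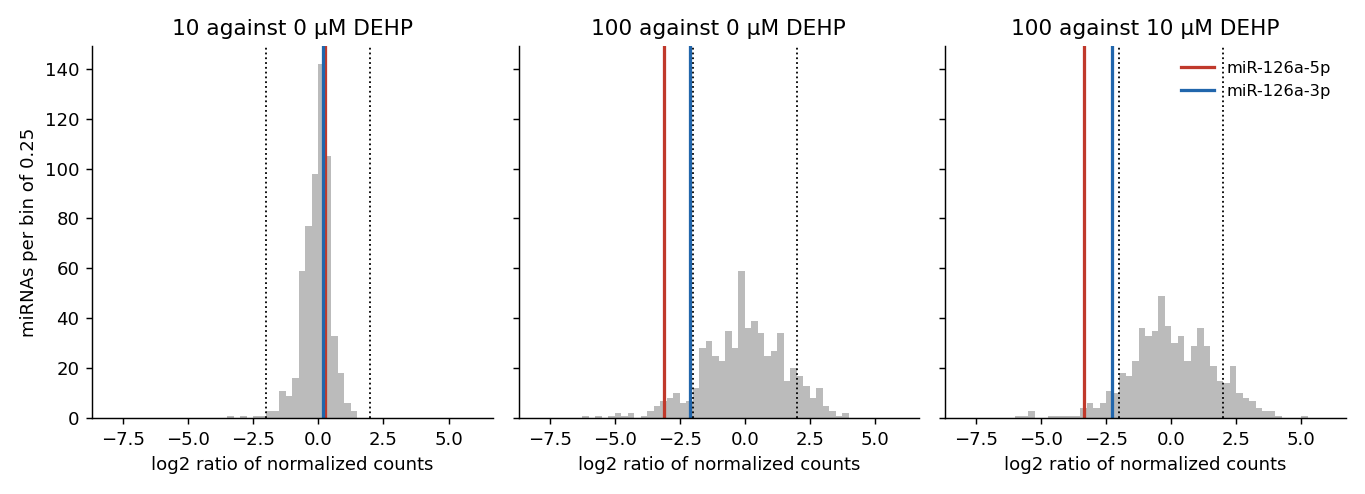
Histograms of the log2 ratios of normalized counts of 587 miRNAs in bins of 0.25 for the 3 comparisons, with miR-126a-5p in red, miR-126a-3p in blue and dotted lines at -2 and 2. At 10 against 0 μM both arms sit near 0, and in both comparisons with 100 μM they lie beyond -2 in the lower tail of a much wider distribution.

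The ratio between the arms comes from 1 library at a time and needs no size factor. The 3p arm was the main arm at each concentration, with 6.07 counts per count of the 5p arm in the control (5.93 to 6.21), 5.73 with 10 μM (5.61 to 5.85) and 12.2 with 100 μM (11.0 to 13.4). The 5p arm thus held 14.1% of the counts of both arms without DEHP (Wilson interval 13.9% to 14.4%). With 10 μM it held 14.9% (14.6% to 15.1%), and with 100 μM 7.60% (6.93% to 8.34%). The library at 100 μM thus held the lowest share of the 5p arm, and the others lay close together. On the log2 scale, the ratio of 5p to 3p moved by 0.08 from 0 to 10 μM (Wald interval 0.04 to 0.13) and by -1.0 from 0 to 100 μM (-1.15 to -0.85).

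**Figure D3:**
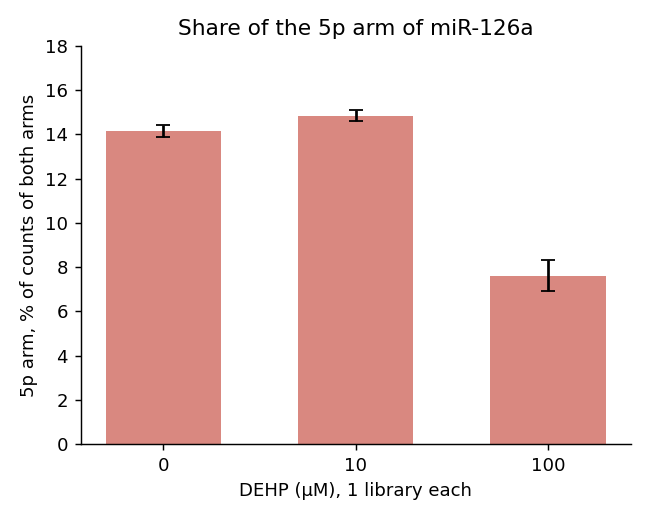
Share of the 5p arm in the counts of both arms of miR-126a at each DEHP concentration, 1 library per bar, with Wilson intervals at 95%. The shares are 14.1% and 14.9% at 0 and 10 μM and 7.60% at 100 μM.

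Such a move of the arm ratio was within the range of other hairpins. Both arms passed the minimum for 174 hairpin names. At 0 μM, 89 of them had more 3p than 5p counts, and 46 leaned further to the 3p arm than miR-126a. The change of the log2 ratio of 5p to 3p between 100 and 0 μM had a median of -0.44 and quartiles of -1.72 and 1.09, and 113 of the 174 hairpins changed by more than miR-126a in size. The main arm switched between libraries for 28 hairpins, and miR-126a was not one of them.

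The hairpins next to miR-126a in this order were miR-145a (-1.05), miR-455 (-1.03) and miR-291a (-1.02) below it and miR-540 (-0.91), miR-329 (-0.91) and miR-1843b (-0.84) above it. The intervals of these 6 overlapped that of miR-126a, the widest being that of miR-540 (-1.73 to -0.093). The largest changes toward the 3p arm were those of miR-30e (-7.04), miR-708 (-6.61) and miR-140 (-5.30), and the largest toward the 5p arm those of miR-10b (4.87), miR-380 (4.59) and miR-200a (4.58). In each of these last 6 hairpins one arm was higher and the other lower at 100 than at 0 μM.

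**Figure D4:**
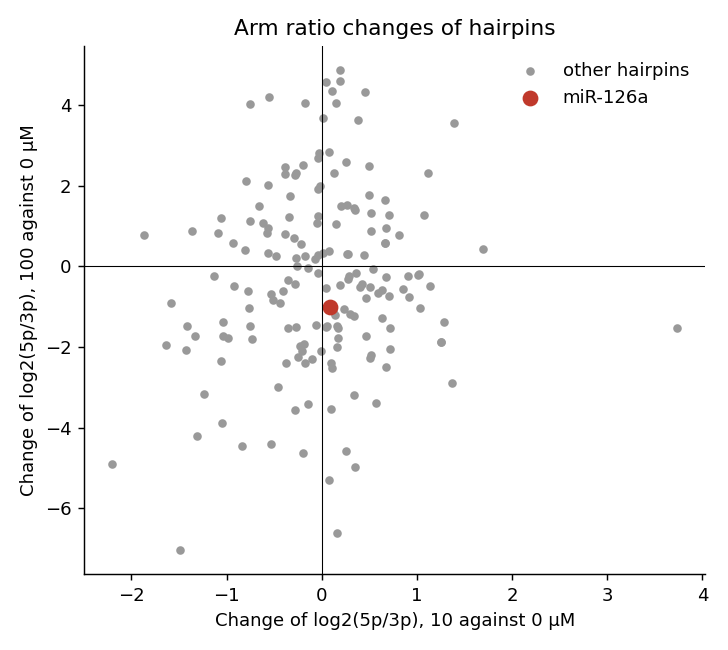
Change of the log2 ratio of 5p to 3p counts between 10 and 0 μM (horizontal) and between 100 and 0 μM (vertical) for 174 hairpins, with miR-126a in red. Both changes use the library at 0 μM. miR-126a, at 0.08 and -1.0, sits among the other points, which reach from -7.04 to 4.87 on the vertical axis.

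Both arms of miR-126a were lower at 100 μM, and other hairpins were split. Of the 174 hairpins, 94 had arms with log2 ratios of opposite sign between 100 and 0 μM, 44 had both arms lower and 36 had both higher. Both arms were below -2 for 4 hairpins, 2.30% of the 174: miR-126a, miR-154, miR-301a and miR-376a. This number depends on the scale: with total counts 28 of 177 hairpins had both arms below -2, 129 had both lower, 2 both higher and 46 opposite signs. The other 3 of the 4 were scarce, with 51 to 475 counts per arm at 0 μM and 3 to 39 at 100 μM. The 3p arms of miR-154 and miR-376a stood at 3 counts in the library at 100 μM, so their ratios rest on the floor. Of these 4 hairpins, miR-126a had the most counts left at 100 μM, 409 and 4970.

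By the distance between the pairs of log2 ratios (10 against 0 μM and 100 against 0 μM) over the 3 libraries, the patterns nearest to each arm were sought among 374 miRNAs whose mean normalized count reached 100. For the 3p arm these were miR-10b-3p (distance 0.26), miR-107-3p (0.30), miR-20a-5p (0.30), miR-369-5p (0.37) and miR-154-5p (0.38). For the 5p arm they were miR-376b-3p (0.19), miR-19b-3p (0.19), miR-410-3p (0.20), miR-143-5p (0.28) and miR-140-5p (0.45). miR-107-3p went from 11278 and 12296 to 1262 counts, and miR-19b-3p from 7016 and 7210 to 333. The arms of miR-126a were farther from each other, at 1.0. This put the 5p arm in place 58 in the order of the 3p arm, and the 3p arm in place 18 in the order of the 5p arm. The patterns rest on ratios that share the library at 0 μM.

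The mature sequences from RefSeq on GRCm38 are shown for 8 of these 10 miRNAs, with the seed in capitals, to set beside that of miR-126a-3p. None of the 8 could share the seed of miR-126a-3p, since no other name in the RefSeq table has it. The 8 also differ from each other in seed.
mmu-miR-10b-3p: cAGAUUCGauucuaggggaaua
mmu-miR-107-3p: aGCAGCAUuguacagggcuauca
mmu-miR-20a-5p: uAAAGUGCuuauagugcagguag
mmu-miR-369-5p: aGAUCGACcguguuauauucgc
mmu-miR-154-5p: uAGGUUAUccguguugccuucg
mmu-miR-376b-3p: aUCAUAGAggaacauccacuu
mmu-miR-19b-3p: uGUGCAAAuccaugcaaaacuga
mmu-miR-410-3p: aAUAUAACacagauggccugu

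Of 15 other miRNAs with a known part in vessel growth, 10 were lower at 100 than at 0 μM, where the median log2 ratio of all miRNAs was -0.01. With total counts as the scale all 15 were lower, but that scale lowers all miRNAs together, to a median of -1.53. All members of the list were above the minimum, 3 of them were below -2 between 100 and 0 μM and 0 above 2, beside 9.37% and 10.4% of all miRNAs, and their median log2 ratio was -0.60 beside -0.01. The lowest was miR-296-5p at -2.88, which rests on 23 counts at 0 μM and 1 at 100 μM (counting interval -8.55 to -0.56). miR-18a-5p, at -2.55 (-3.30 to -1.92), and miR-20a-5p, at -2.38 (-2.46 to -2.30), belong to the cluster of miR-17, which cycling cells use widely. The lower miR-17-5p (-1.33) and miR-92a-3p (-0.53) are of that cluster too, so the 10 do not all come from separate genes. The highest was miR-23b-3p, an endothelial and broadly expressed miRNA, at 1.22 (1.18 to 1.27). The summed normalized count of the list was not lower at 100 μM: 182661, 182575 and 185806 at 0, 10 and 100 μM. Of that sum, miR-27b-3p held 78987, 79434 and 105285. Between 10 and 0 μM the list reached from -0.63 to 0.55, and 0 of its members passed 2 in either direction. Nearly no miRNA did so there, with 0.681% of all below -2 and 0% above 2.

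For mural cells, the muscle cells and pericytes around vessels, miR-143 and miR-145a were taken as markers. Whether mural cells were their source in these ovaries was not tested. The arms of miR-143 had ratios of opposite sign, and both arms of miR-145a were below 0. miR-143-3p had 288159, 218413 and 432017 counts at 0, 10 and 100 μM and a log2 ratio of 1.92 between 100 and 0 μM, while miR-143-5p was at -3.06. miR-145a-5p was at -1.20 and miR-145a-3p at -0.15. The median of the 4 was -0.68. The summed normalized count of this list, nearly all miR-143-3p, was 215942 at 0 μM and 794815 at 100 μM.

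Among blood cells, hematopoietic progenitors and platelets are known to hold miR-126. The markers named below are of red and white cells, and the blood list was scarce. Of 9 miRNAs in the list, 8 were in the table and 7 passed the minimum, with a summed normalized count of 1199, 1210 and 1072 for the 8 at 0, 10 and 100 μM. That sum is under the level of either arm at 0 and 10 μM, and above that of the 5p arm at 100 μM. Levels of different miRNAs do not measure numbers of cells. miR-451a, made in red blood cells, had 165, 177 and 54 counts and a log2 ratio between 100 and 0 μM of -0.27 (-0.75 to 0.18). Among white cell markers, miR-142a-3p was the lowest of the list at -1.98 (-3.53 to -0.83), and miR-486a-3p, of red cells, the highest at 1.72 (1.14 to 2.33). That arm had 44, 19 and 58 counts. The more abundant arm, miR-486a-5p, had 1126, 1180 and 400 and was at -0.16 (-0.33 to 0.009). With the size factors used, none of the 7 passed 2, beside 9.37% of all miRNAs below -2 and 10.4% above 2. A list this short can hold none at such shares, and its median was -0.16. The part of blood cells in the level of miR-126a was not tested.

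In stroma and germ cell lists, of 5 and 3 miRNAs, no member was below -2 with the size factors used, beside 9.37% of all miRNAs. Lists this short can hold none at that share. The 5 miR-199 and miR-214 arms of stroma had a median log2 ratio between 100 and 0 μM of 0.14, from -1.19 for miR-214-5p to 0.96 for miR-199a-5p. For 3 germ cell miRNAs of the miR-290 cluster the median was 0.97, from 0.93 for miR-291a-3p to 2.70 for miR-294-3p. With total counts as the scale both medians turned negative, to -1.38 and -0.55, while the arms of miR-126a were lower still, at -3.64 and -4.64. Of the muscle list, miR-1a-3p passed the minimum and was at 0.84. miR-122-5p, of liver, with 22, 14 and 8 counts before scaling, was at -0.12 (-1.50 to 1.10), and miR-9-5p, of brain, was at 0.37.

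**Figure D5:**
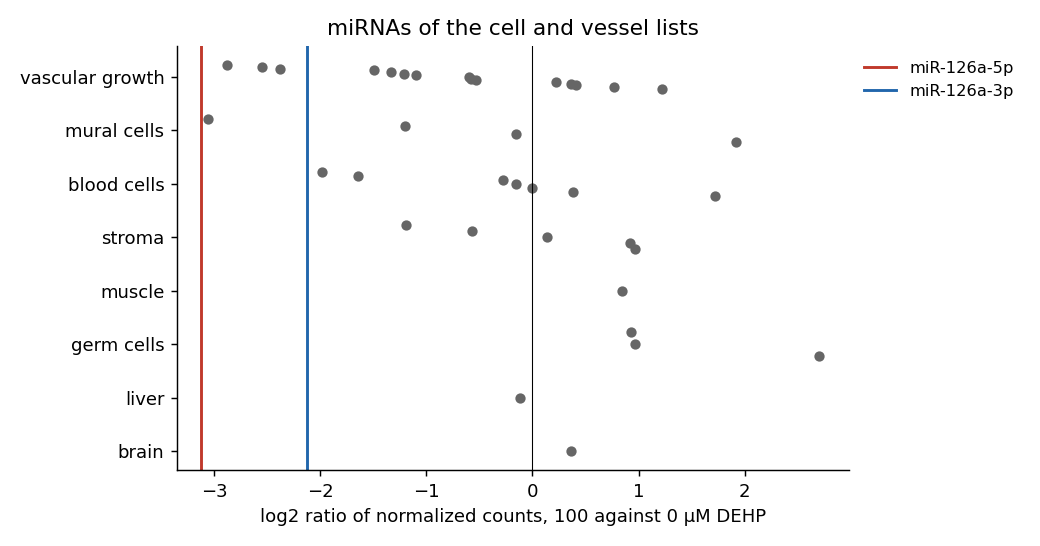
Log2 ratio of normalized counts between 100 and 0 μM DEHP for each miRNA of the lists above the minimum level, 1 point per miRNA, with vertical lines at miR-126a-5p (red, -3.12) and miR-126a-3p (blue, -2.12). No point lies below the 5p arm, and 4 lie between the arms: 3 of vascular growth and miR-143-5p.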

How the data were processed

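Per the study's methods, linkers and poor-quality sequence were trimmed, bowtie2 placed the reads on the mouse genome and miRDeep2 quantified miRNAs. The authors deposited whole-number counts for 961 rows, and the submitters' processing notes name mm10 and DESeq2. Tool versions and the miRBase release are not given in the sources used here. Each column was matched to its library by title, and the row with the highest total was kept for each of 627 miRNAs, of which 79 have several rows. Size factors came from DESeq2 1.42.0 in R 4.3.3, TMM and upper-quartile factors from edgeR 4.0.16, and other steps used Python 3.11.15 and SciPy 1.17.1. With totals of 5064602 to 5952274 counts, the lowest arm, at 409 counts, still has a narrow Poisson interval, but PCR copies cannot be told from molecules, as no molecular identifiers are mentioned. Counts of 3 or fewer were treated as the floor.

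The members and lists were chosen with earlier results of these data known. The rule for named miRNAs took both arms, the 5 nearest patterns to each, their neighbours in level at 0 μM, the ends of each list, and the hairpins nearest to and farthest from miR-126a in arm change. miR-18a-5p, miR-27b-3p, miR-92a-3p, miR-145a, miR-451a, miR-486a-5p, miR-301a, miR-376a and the miR-154 arms as a pair were named after their values were seen. The vascular growth, mural, blood, stroma, muscle, germ, liver and brain lists came from general knowledge. Mature sequences were found in RefSeq for 529 of the 627 miRNAs. miR-126a-5p and miR-140-5p had no mature entry there, and miR-143-5p is not shown because of a filter on its chromosome. Scripts were tested on simulated data. Alternatives were other scalings, summed rows, 1 added, other minimums and a threshold of 1. Target mRNAs and Egfl7 were not analysed here.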

Additional observations from a re-analysis of the deposited data

How the results depend on the processing

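No paired analysis was possible because each concentration has a single library, so none could be left out either. Both arms of miR-126a were below -2 in each comparison with 100 μM under each scaling, with summed rows and with 1 added. Over these 8 settings the log2 ratio between 100 and 0 μM went from -4.64 to -3.04 for the 5p arm and from -3.64 to -2.04 for the 3p arm. The 3p arm lies near the threshold of 2, and depth limits the 5p arm most, at 409 counts. The change of the arm ratio uses no scaling and stayed inside its interval with summed rows and with 1 count added. In all, 127 values stayed within limits, 52 left them and 4 changed sign, where the limit was 1.5 times for numbers of miRNAs or hairpins and the counting interval, often narrow, for ratios and medians.

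Total counts shift all log2 ratios between 100 and 0 μM by -1.52 in the median and total counts without the 10 most abundant miRNAs by -0.77, TMM by 0.08 and the upper quartile by 0.01. These shifts follow from the factors and move all miRNAs together. With total counts the log2 ratios of the 3p arm were 0.19 between 10 and 0 μM, -3.64 at 100 against 0 μM and -3.83 at 100 against 10 μM, and those of the 5p arm -4.64 and -4.91 in the comparisons with 100 μM. There 213 miRNAs (35.9%) were below -2 and 4 (0.675%) above 2 at 100 against 0 μM, and 226 (38.1%) below -2 at 100 against 10 μM. The list medians were -2.11 for vascular growth, -2.19 for mural cells, -1.67 for blood cells, -1.38 for stroma and -0.55 for germ cells. As alternatives chosen after seeing the data, hairpins were counted under each scaling: with total counts 28 had both arms below -2, 129 both lower, 2 both higher and 46 opposite signs. Without the 10 most abundant miRNAs, the 3p arm was at 0.21, -2.89 and -3.09 and the 5p arm at -3.89 and -4.18, 130 miRNAs (22.03%) were below -2 and 23 (3.90%) above 2 at 100 against 0 μM, and 119 (20.2%) below -2 at 100 against 10 μM. Of the hairpins 12 had both arms below -2, 85 both lower and 8 both higher. The medians were -1.36, -1.44, -0.92, -0.62 and 0.20 in the same order of lists.

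With TMM the 3p arm was at 0.20, -2.04 and -2.24 in the same order of comparisons, and the medians of vascular growth and stroma were -0.52 and 0.22. With the upper quartile the 3p arm was at 0.23 (10 against 0 μM) and -2.33 (100 against 10 μM), the 5p arm at 0.31 (10 against 0 μM) and stroma at 0.16. Size factors over all rows gave 0.23, -2.33, 0.32 and 0.17 for the same values. With a mean of at least 100, 1 miRNA (0.267%) was below -2 at 10 against 0 μM, 25 (6.68%) at 100 against 0 μM and 24 (6.42%) at 100 against 10 μM, and the median arm change of all hairpins between 10 and 0 μM turned to -0.039 from 0.04. With no minimum 9 (1.44%) were below -2 at 10 against 0 μM. At a threshold of 1, 30 miRNAs (5.11%) were lower and 9 (1.53%) higher at 10 against 0 μM, 151 (25.7%) lower and 157 (26.7%) higher at 100 against 0 μM, and 24.7% lower at 100 against 10 μM. These numbers follow from the minimum and the threshold themselves. Lists were not counted at a threshold of 1, and their medians do not use it.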
